A study of Homo sapiens with 12 samples.

Results

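The PAX genes, PAX1 to PAX9, were examined for trimethylated lysine 27 of histone H3 (H3K27me3) and for succinylated lysine (Ksu). The cells were HepG2/C3A, an established human line from a liver tumour. The members were chosen by name, and all 9 were found among 20037 protein-coding genes of RefSeq on the 24 chromosomes. Each gene was measured over a window made of its body with 20 kb either side, from 47.9 kb at PAX4 to 241 kb at PAX5 and 1007 kb in all. Bodies were those of RefSeq GRCh38.p14, and neighbouring genes within a window count toward its cover. Both marks were mapped by CUT&Tag, in which an antibody directs a transposase to chromatin and the released fragments are sequenced. Control cells are labelled as control, which the design text calls vehicle. Treated cells received 10 mM sodium succinate, given in water per the labels' protocol, and the labels give 48 hours for every sample. Each combination of antibody and treatment had 2 libraries labelled as biological replicates, so 8 peak lists were used. No list of the 4 IgG libraries was used here, and values are not set against an antibody background. The Ksu antibody recognises succinylated lysine on any protein, not only on histones.

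PAX proteins are transcription factors that bind DNA through a paired domain and direct the formation of organs in the embryo. They fall into groups of close relatives, PAX1 with PAX9, PAX2 with PAX5 and PAX8, PAX3 with PAX7, and PAX4 with PAX6. H3K27me3 is placed by Polycomb repressive complex 2 and marks developmental genes held silent in cells that do not use them, often over CpG-rich starts. Succinyl groups on lysine derive from succinyl-CoA of the citric acid cycle.

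Read depth is unknown from peak lists. The H3K27me3 lists held 5531 to 19133 peaks covering 3.83% to 6.51% of the chromosomes, and the Ksu lists 76702 to 629903 peaks covering 2.63% to 10.8%. Covered percentages below are the share of a window's bases under peaks. The bodies of 12 liver genes and 10 housekeeping genes were also examined, and 0 of each had an H3K27me3 peak in any library. Over all 20037 genes, 5017 bodies had some H3K27me3 cover. Both lists gave the same result, so it does not tell liver cells from others. With 20 kb either side, 3 of the 12 (APOB, HNF4A and FOXA2) and 1 of the 10 (ACTB) had a peak in at least 1 library. Of all 20037 gene windows, 11616 had none in any library.

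Starts of 8 members were matched in a RefSeq table of promoters on GRCh38.p14, which gives 250 bases before to 50 after each start. PAX1 was not matched. The most upstream windows of PAX4, PAX7 and PAX8 are shown because they mark the range of what the H3K27me3 lists hold at these starts. The PAX7 window lies inside the widest domain of the family, the PAX4 window has few CG dinucleotides and was under a peak in all 4 libraries, and the PAX8 window was outside the main domain of its gene. They are chr7:127618093-127618392 on the minus strand, chr1:18630596-18630895 on the plus strand and chr2:113278872-113279171 on the minus strand, in lower case with each CG in capitals, 5′ to 3′.
PAX4: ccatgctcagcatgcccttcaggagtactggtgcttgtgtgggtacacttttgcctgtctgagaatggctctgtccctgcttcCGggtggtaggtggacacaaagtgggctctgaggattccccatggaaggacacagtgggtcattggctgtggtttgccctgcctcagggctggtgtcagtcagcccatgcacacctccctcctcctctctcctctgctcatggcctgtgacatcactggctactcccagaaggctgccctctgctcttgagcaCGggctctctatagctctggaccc
PAX7: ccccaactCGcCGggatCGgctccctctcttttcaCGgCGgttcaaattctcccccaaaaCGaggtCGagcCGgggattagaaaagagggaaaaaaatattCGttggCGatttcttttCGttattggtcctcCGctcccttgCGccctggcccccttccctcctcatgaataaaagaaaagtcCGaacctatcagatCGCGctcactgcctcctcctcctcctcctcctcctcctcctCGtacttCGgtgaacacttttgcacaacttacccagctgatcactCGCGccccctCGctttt
PAX8: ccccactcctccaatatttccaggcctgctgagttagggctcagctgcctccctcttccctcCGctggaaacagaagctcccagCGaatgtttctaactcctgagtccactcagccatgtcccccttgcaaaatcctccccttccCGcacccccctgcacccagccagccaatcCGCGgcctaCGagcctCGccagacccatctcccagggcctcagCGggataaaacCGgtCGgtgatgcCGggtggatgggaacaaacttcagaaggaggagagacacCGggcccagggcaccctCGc
The letters CG, which read the same on both strands, occurred 2 times in the PAX4 window, 21 times in that of PAX7 and 13 times in that of PAX8. Of 22199 such windows of protein-coding genes, 98.0% held at least 1 CG, the median was 21, and 10.3% held no more CG than the PAX4 window. The most upstream windows of the 8 members had a median of 20. Those under H3K27me3 peaks in all 4 libraries had a median of 19 over all genes, and 4.46% of them held no more CG than PAX4.

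H3K27me3 peaks overlapped the windows of all 9 PAX genes in each of the 4 libraries. Over all gene windows this was so for 20.8%. Longer windows meet a peak more easily, and this share was 12.3% on gene bodies alone and 29.2% with 50 kb either side. All 9 members had a peak in each library in both settings. The members differed widely in how much was covered. PAX7, PAX2 and PAX5 were covered over more than 50% of their windows in every library, and PAX3, PAX4, PAX8 and PAX9 over less than 25% in every library. The lowest of the 9 members lay above 79.7% and 85.7% of all gene windows in control replicates 1 and 2. In succinate replicates 1 and 2 it lay above 80.1% and 82.9%. Most gene windows had no peak, so a window with any peak ranks high on this scale. The share of all gene windows with a peak was 40.6% and 22.4% in control replicates 1 and 2. It was 33.3% and 25.6% in succinate replicates 1 and 2.

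PAX7 (chr1:18630846-18748866, plus strand), a factor of muscle stem cells, had the highest cover, at 92.1% in both control libraries and 92.1% and 93.6% in the succinate libraries. A single peak of 134604, 134570, 134599 and 157434 bp held 99.1% of the gene body in every library. It ranked 9th and 12th in width among 19133 and 5813 control peaks and 27th and 22nd among 9985 and 5531 succinate peaks. Its far edge lay 116929 to 116972 bp from the gene start, a spread of 43 bp over the 4 libraries. Its near edge lay 17635 to 17671 bp before the start in 3 libraries, a spread of 36 bp, and 40461 bp before it in succinate replicate 2. PAX3 (chr2:222199887-222298998, minus strand), the close relative of PAX7 that acts in neural crest and muscle precursors, had 20.3% and 18.5% in control, and the succinate libraries had 19.0% each. Its main peak was 23635 to 26452 bp wide and reached from 15018 to 15459 bp before the start to 8616 to 11158 bp into the gene, so most of the 99.1 kb body was outside it. That peak also holds CCDC140, annotated as a long noncoding RNA.

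PAX2 (chr10:100735396-100829944, plus strand), a factor of kidney, eye and ear, had 87.9% and 87.3% of its window covered in control and 88.1% and 89.4% in succinate. The cover was split into 4 peaks in each control library and into 3 and 2 in the succinate libraries. PAX5 (chr9:36833269-37034268, minus strand), a factor of B lymphocytes, had 75.1% and 52.4% in control and 73.2% and 58.4% in succinate. At PAX5 the replicate 1 libraries were the higher of each treatment, and the cover came in 12 and 7 peaks in control and 7 and 8 in succinate. The bases common to all 4 libraries made up 49.8% of those covered in any, against 98.3% at PAX7.

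PAX8 (chr2:113215997-113278921, minus strand), the member of the same group that acts in thyroid and kidney, had 21.2% and 18.4% in control and 19.1% and 22.5% in succinate. Its main peak did not reach the start. The nearest edge lay 4807 to 5344 bp into the gene in the 4 libraries, and the peak ended 22299 to 28352 bp into it. It overlapped PAX8-AS1, a long noncoding RNA gene annotated inside PAX8. The PAX8 start window printed above was under a peak in control replicate 1 alone, in a separate peak of 4820 bp that ranked 13745 of 19133 by total signal. That peak was no longer listed when each library was reduced to its 5531 peaks of highest total signal. The most upstream start windows of the other 7 matched members were overlapped by H3K27me3 peaks in all 4 libraries, so 7 of 8 were, where over all 15843 genes matched 7.35% were. Those 7 windows lay whole under the peaks.

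PAX1 (chr20:21705664-21718481), which acts in the vertebral column and thymus, had 51.0% and 53.5% in control and 31.9% and 52.8% in succinate. Succinate replicate 1 stood apart from the other 3. There the peak measured from the lower-coordinate end of the gene began 4870 bp before it, against 15936 to 16128 bp in the others, while the opposite edge varied by 1317 bp. PAX9 (chr14:36657568-36679362, plus strand), its relative in teeth and pharyngeal pouches, had 17.1% and 17.2% in control and 17.4% and 18.7% in succinate. Its only peak was 10539 to 11561 bp wide and lay from 3561 to 3861 bp before the start to 6955 to 7699 bp after it. The bases common to all 4 libraries made up 91.0% of those covered in any.

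PAX4 (chr7:127610292-127618142, minus strand), a factor of pancreatic islet cells, had 18.0% and 19.4% in control and 18.1% and 17.8% in succinate, in a single peak of 8520 to 9263 bp. The highest signal of that peak lay 40 bp after the start in 3 libraries and 4441 bp after it in succinate replicate 2, so that in 3 of 4 libraries it fell inside the CG-poor window shown above. PAX6 (chr11:31789026-31817961, minus strand), a factor of eye, brain and islets, had 34.6% and 27.1% in control and 18.5% and 24.5% in succinate. Both succinate libraries lay below both control libraries.

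**Figure D1:**
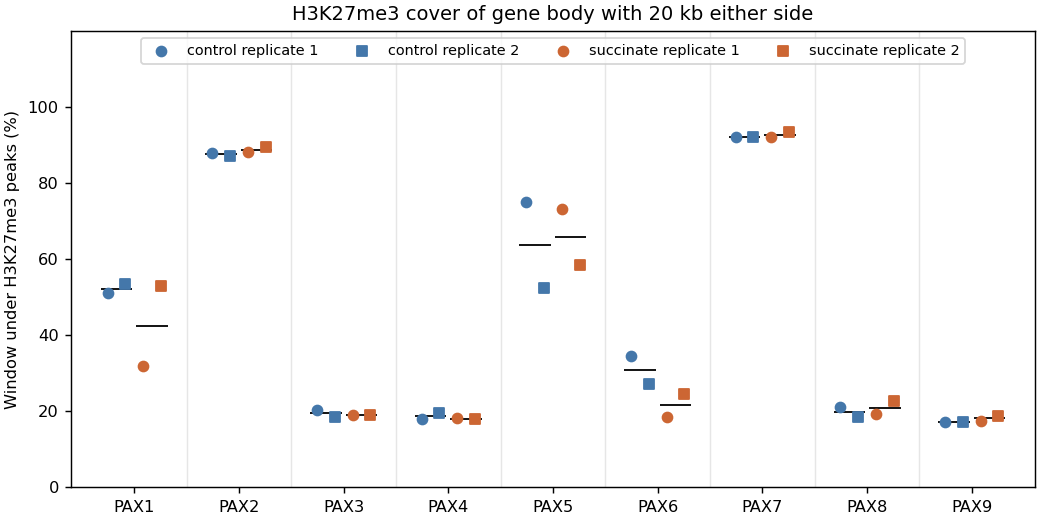
Percent of each window under H3K27me3 peaks (vertical axis) for the 9 PAX genes. Each point is a library, coloured by treatment and shaped by replicate number, and black bars are means of 2 libraries. PAX7 and PAX2 lie near 90% in all libraries, and PAX6 is the gene whose succinate points, at 18.5% and 24.5%, both lie below its control points.

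**Figure D2:**
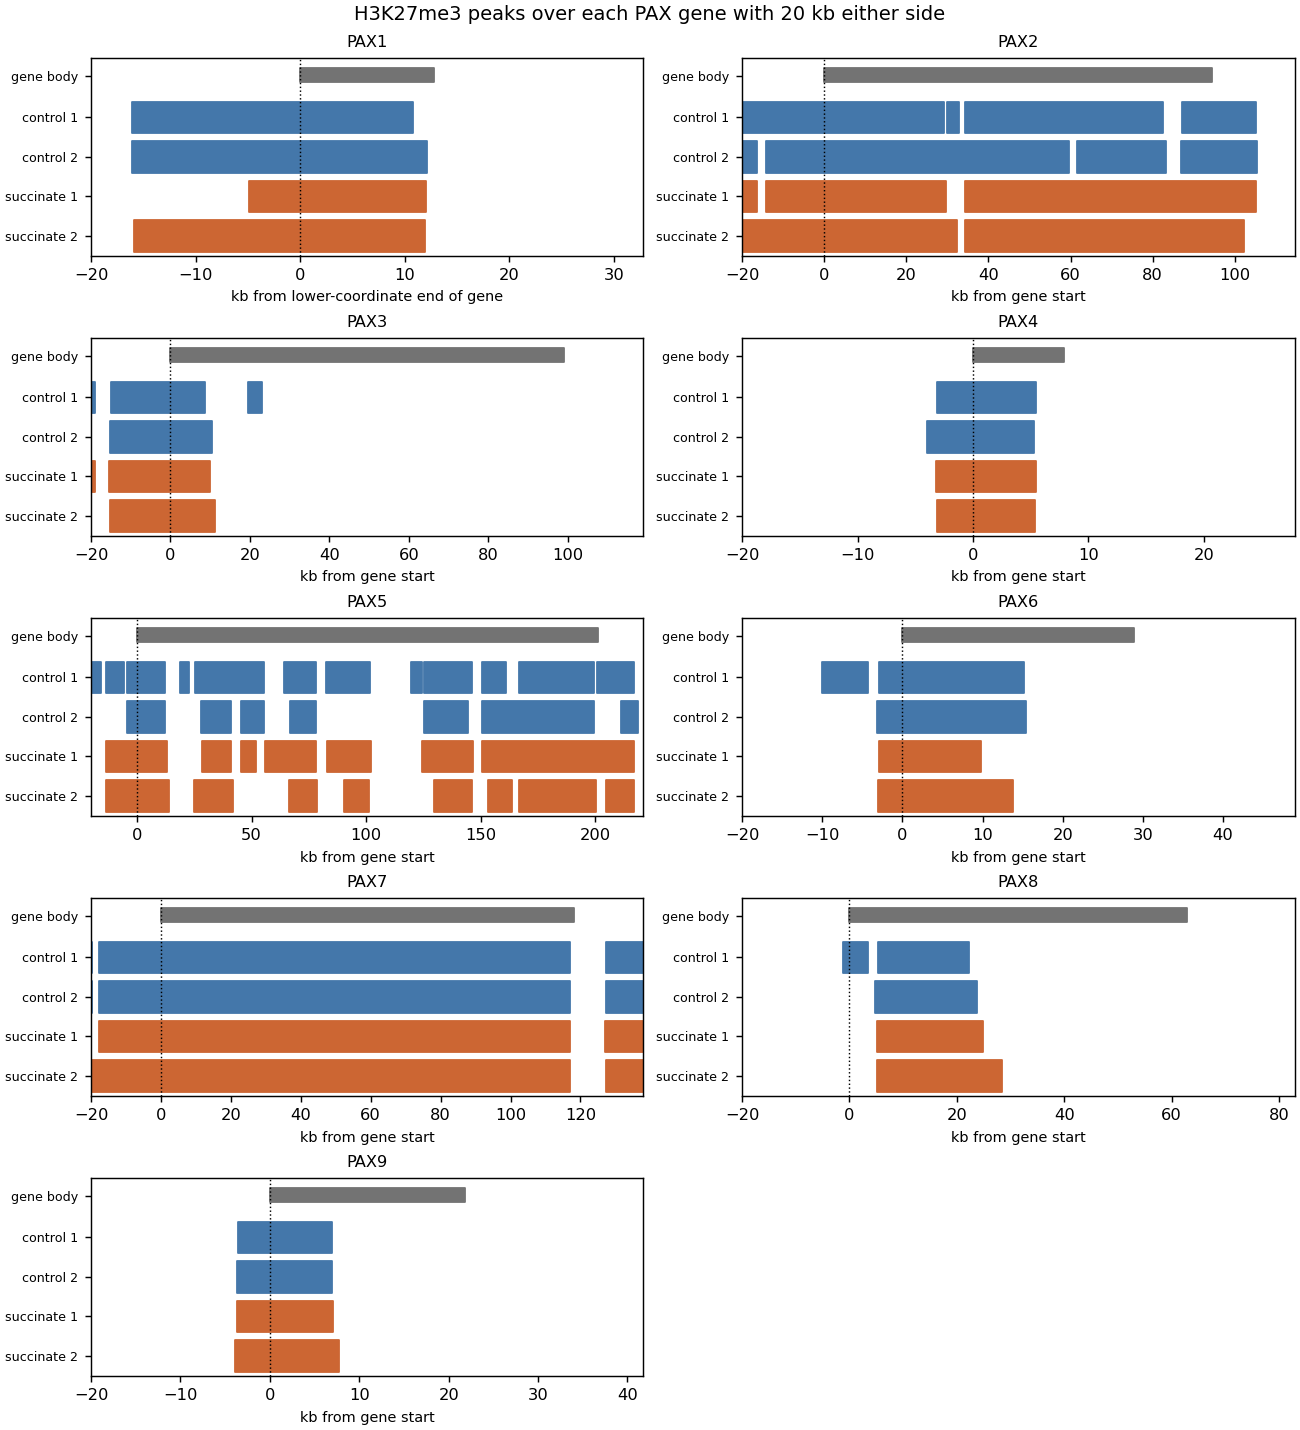
H3K27me3 peaks in each library (coloured bars, control in blue and succinate in orange) over each PAX gene, with distance from the gene start in kb in the direction of transcription, or from the lower-coordinate end for PAX1. The PAX7 peak ends within 43 bp in the 4 libraries, and the main PAX8 peak begins 4807 to 5344 bp inside the gene.

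The title of the series concerns succinylation of histones, demethylases and repressive chromatin, and the treatment comparison asks whether H3K27me3 cover differed with succinate. PAX6 was the member with both succinate libraries lower, by 9.33 percentage points (30.8 ± 5.32 in control and 21.5 ± 4.23 in succinate, SD, n = 2, pooled SD 4.81). PAX2 and PAX9 had both succinate libraries higher, by 1.17 points (pooled SD 0.751) and 0.939 points (pooled SD 0.666). The other 6 members overlapped between treatments, with differences from -9.86 points at PAX1 (pooled SD 10.5) to 2.05 points at PAX5 (pooled SD 13.6). Over all gene windows 9.28% had both succinate libraries higher and 2.01% both lower. Among windows with a peak in each of the 4 libraries, which all members are, the shares were 32.3% and 5.99%, so the counts of 2 higher and 1 lower among 9 members stood near the background. With equal numbers of peaks PAX8 joined PAX2 and PAX9, and 12.2% of all gene windows were higher and 1.47% lower. After merging peaks within 1 kb and with 50 kb either side PAX2 overlapped between treatments, with the upper 50% of peaks by total signal PAX9 did, and after division by library cover neither PAX2 nor PAX9 stayed apart (6.88% of all gene windows higher and 2.28% lower). The PAX2 difference ranged from 0.490 points without succinate replicate 2 to 1.86 points without succinate replicate 1, and that of PAX9 from 0.275 to 1.60 points without the same libraries. On the gene body alone the PAX1 difference was 3.92 points, opposite in sign to that of the window. The exact two-sided permutation test over 4 libraries cannot give a p below 0.333, and gave 0.333 for PAX2, PAX6 and PAX9. limma, which borrows the spread from 8421 windows, called 0 windows higher and 0 lower after Benjamini-Hochberg adjustment (196 and 45 at an unadjusted p under 0.05). For PAX6 its log2 difference was -0.50 (SE 0.25, limma adjusted p = 0.771) and for PAX7 0.011 (SE 0.047, limma adjusted p = 1). Over the 9 windows together H3K27me3 covered 52.9% ± 4.51 in control and 52.6% ± 0.849 in succinate (SD, n = 2).

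At PAX6 the edge inside the gene lay nearer the start in both succinate libraries than in both control libraries. Control replicate 1 also had a further peak before the start. The edge before the start was at 2966 to 3184 bp in all 4 libraries, a spread of 218 bp. The edge inside the gene was at 15231 and 15471 bp in control and at 9790 and 13797 bp in succinate. PAX6 has 9 start windows in the RefSeq table, and 8 were whole under a peak in each control library, 3 in succinate replicate 1 and 7 in succinate replicate 2. The further peak of control replicate 1, of 5634 bp in the long noncoding RNA gene PAX6-AS1, began 9986 bp and ended 4353 bp before the start. It ranked 15098 of 19133 by total signal, and without it, at 5531 peaks per library, the control values of PAX6 were 26.4% and 27.1%. The difference of -9.33 points was -5.56 points without control replicate 1, -5.24 points with equal numbers of peaks and with the upper 50% of peaks, and -4.99 points with 50 kb either side. Both succinate libraries stayed lower under each alternative way of measuring that was tried but one. When the percentage was divided by the share of the chromosomes that each library covered, PAX6 was 5.31 and 7.08 times that share in control and 3.27 and 5.36 times in succinate, and the treatments overlapped.

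**Figure D3:**
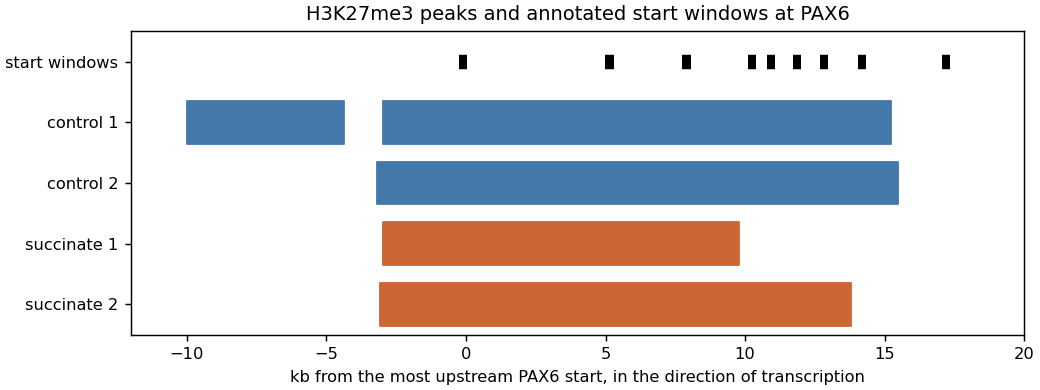
H3K27me3 peaks at PAX6 in each library (blue control, orange succinate) and the 9 annotated start windows (black), in kb from the most upstream start in the direction of transcription. The edge before the start is shared, and the edge inside the gene lies at 9790 and 13797 bp in succinate against 15231 and 15471 bp in control.

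Ksu peaks covered less of every PAX window than H3K27me3 peaks did, and more in succinate than in control. All 4 H3K27me3 libraries were above all 4 Ksu libraries at each of the 9 members, where 14.7% of all gene windows showed this and 31.3% the reverse. Ksu peaks were present at 9 of 9 members in each Ksu library, where 54.7% of all gene windows had them. That share depends on window length, at 31.7% on gene bodies alone (8 members) and 71.2% with 50 kb either side (9 members). The H3K27me3 minus Ksu differences ran from 9.49 points at PAX4 to 79.2 points at PAX2. Each had an exact two-sided permutation p of 0.0286 with both treatments pooled, the smallest that 8 libraries allow. The lists differ in form as well, so this compares peak lists and not the amounts of the marks. In the member windows the median H3K27me3 peak was 15056 to 20235 bp wide in the 4 libraries, and the median Ksu peak 399.5 to 975 bp.

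At PAX7 Ksu covered 4.36% and 9.05% of the window in control and 22.1% and 25.3% in succinate, the highest succinate values of the family. At PAX5 it covered 1.07% and 3.56% in control and 9.74% and 18.7% in succinate. At PAX2 the control values of 2.74% and 3.02% were followed by 14.0% and 16.1% with succinate. These 3 members differed by 17.0, 11.9 and 12.1 points between the means, the largest differences of the 9, and in none did the treatments overlap. PAX8 had 4.26% and 4.0% in control and 12.0% and 13.2% in succinate. PAX4 had 1.64% and 8.51% in control and 11.5% and 13.7% in succinate. PAX1 had 4.22% and 14.4% in control and 14.8% and 17.4% in succinate, and the highest control value was just under the lowest succinate value. The means of the remaining members differed by less. PAX3 had 4.79% and 7.78% in control and 8.20% and 12.4% in succinate. PAX6 had 5.56% and 4.35% in control and 7.02% and 11.7% in succinate. PAX9 had 6.49% and 6.63% in control and 8.26% and 10.7% in succinate. Its difference of 2.90 points (pooled SD 1.20) was the smallest of the 9. Without control replicate 1 the difference was 1.65 points at PAX1, 2.53 points at PAX3 and 4.08 points at PAX4, and without control replicate 2 it was 11.9 points at PAX1. Without succinate replicate 2 it was 7.42 points at PAX5, 2.06 points at PAX6, 1.92 points at PAX3 and 1.70 points at PAX9, and without succinate replicate 1 it was 6.13 points at PAX3 and 6.77 points at PAX6.

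Both succinate libraries were above both control libraries at 9 of 9 members. Over all gene windows this held for 65.9%, and the reverse for 0.250%. The exact two-sided permutation p was 0.333 for each member, the smallest possible. limma over 19564 windows called 84 higher and 0 lower (4301 and 0 at an unadjusted p under 0.05), which is 0.429% of them. PAX7 was the only member called, with a log2 difference of 1.75 (SE 0.41, limma adjusted p = 0.0120). The other 8 had log2 differences from 0.46 (PAX9) to 2.24 (PAX5), with limma adjusted p from 0.163 to 0.574. The median difference over all windows in this fit was 1.52, so PAX7, PAX2 (2.04) and PAX5 were above it and the other 6 members below it. The PAX7 call was lost without control replicate 1 (limma adjusted p = 0.285), without succinate replicate 1 (0.243) and without succinate replicate 2 (0.891). It was also lost with equal numbers of peaks (0.444), after merging within 1 kb (0.157), on the gene body alone (0.372), with no filter on cover (0.162) and after division by library cover (0.461).

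The Ksu libraries covered 2.63% and 6.07% of the chromosomes in control and 6.16% and 10.8% in succinate, so each member was also divided by the cover of its library. PAX7 was then 1.66 and 1.49 times the chromosome-wide share in control and 3.58 and 2.35 times in succinate. PAX2 was 1.04 and 0.498 times in control and 2.27 and 1.49 times in succinate. PAX5 was 0.407 and 0.587 times in control and 1.58 and 1.73 times in succinate. At these 3 members the treatments still did not overlap, where 48.5% of all gene windows had both succinate libraries higher on this scale and 4.84% both lower. At the other 6 they overlapped, as at PAX9 with 2.47 and 1.09 times in control and 1.34 and 0.990 times in succinate. With 76702 peaks taken from each library, both succinate libraries were higher at PAX1, PAX2, PAX5 and PAX7 (27.3% of all gene windows higher and 6.25% lower). The differences were then 7.13 points at PAX7, 6.03 points at PAX2 and 2.78 points at PAX5. In that setting succinate minus control was -2.58 points at PAX9 and -0.281 points at PAX6, with overlapping treatments.

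**Figure D4:**
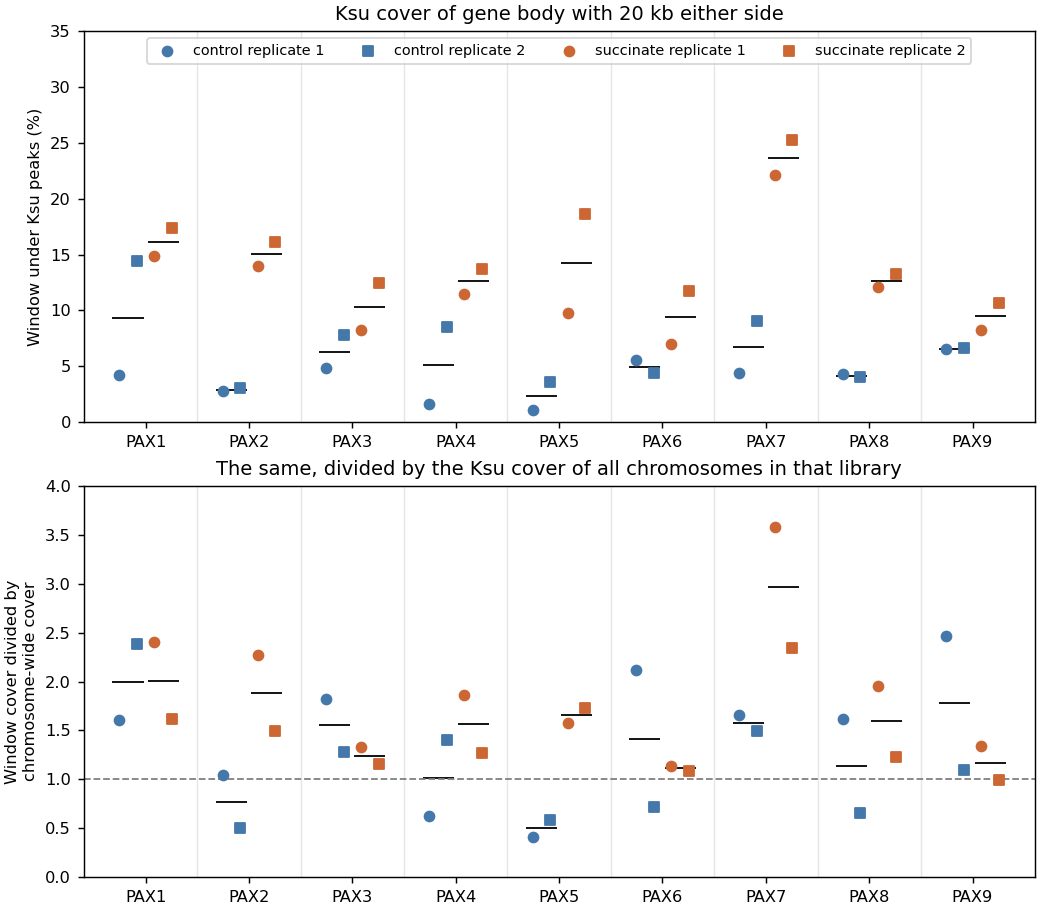
Percent of each window under Ksu peaks (upper panel) and the same divided by the share of all chromosomes that the library's Ksu peaks cover (lower panel, dashed line at equal cover) for the 9 PAX genes. Points are libraries and black bars means of 2. All succinate points lie above the control points of their gene in the upper panel, and in the lower panel this holds for PAX2, PAX5 and PAX7.

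The positions of Ksu peaks inside the windows were little shared. The Jaccard index (bases under peaks of both libraries, as a share of bases under peaks of either) was at most 0.160 over the 6 pairs of Ksu libraries at any member. For H3K27me3 it was at least 0.535. The index is limited by how much each library covers, and H3K27me3 covered more. It therefore does not compare the marks on equal terms. Bases under Ksu peaks in all 4 libraries existed at PAX8 (238 bp, chromosome 2 from 113259307 to 113259544) and PAX6 (81 bp, chromosome 11 from 31792921 to 31793001) and at none of the other 7. The PAX8 bases lie inside its main H3K27me3 peak in all 4 H3K27me3 libraries, and the PAX6 bases outside the PAX6 peak in all 4. At PAX2 the control libraries shared 0 kb and the succinate libraries 3.91 kb of 36.5 kb. At PAX7 the control libraries shared 1.83 kb of 19.4 kb and the succinate libraries 6.21 kb of 68.6 kb. The Jaccard index of these pairs was 0 in control and 0.107 in succinate at PAX2, and 0.095 and 0.091 at PAX7. More bases are shared where more is covered, and Ksu cover was higher in succinate. These values therefore do not show that positions were more alike after succinate. Of the 8 most upstream start windows, Ksu peaks overlapped 0 in both control libraries, 2 in succinate replicate 1 (PAX2 and PAX3) and 0 in succinate replicate 2. Over all genes the shares were 2.03%, 7.52%, 7.74% and 12.8%.

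Ksu was then compared inside and outside the H3K27me3 peaks of the same treatment and replicate number. Over the 9 windows, Ksu covered 3.52% and 6.18% of the bases inside H3K27me3 peaks in control and 14.2% and 19.5% in succinate. Outside them it covered 3.44% and 5.87% in control and 10.2% and 13.6% in succinate. Inside minus outside was 0.080 and 0.310 points in control and 4.0 and 5.95 points in succinate, and over whole chromosomes it was 1.75, 0.754, 6.82 and 5.78 points. Bases were pooled over the 9 windows, so differences in Ksu cover between members enter those values. Inside was above outside at 6 and 3 of the 9 members in control replicates 1 and 2. In succinate replicates 1 and 2 this held at 4 and 7. In the succinate libraries H3K27me3 covered 92.1% and 93.6% of the PAX7 window, so few bases lay outside. There inside was above outside by 11.1 and 11.2 points. With equal numbers of peaks these values were 13.3 and -0.516 points, so the direction turned in succinate replicate 2. At PAX1 it was below by 13.0 points in succinate replicate 1 and above by 9.32 points in succinate replicate 2. No test was made of these values.

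A list of 50 genes that act with PAX factors or downstream of them was set beside the family. In it 26 had an H3K27me3 peak in each of the 4 libraries, where 20.8% of all gene windows did, and the median over the 50 of the mean cover was 19.1%, against 26.2% for the PAX genes and 0% over all windows. LBX1, a factor of migrating muscle precursors, had the highest mean cover of the list at 100%. INS, the insulin gene, followed with 93.8% and UNCX, a factor of the somites, with 93.1%. Both succinate libraries were higher in H3K27me3 for 6 of the 50 and lower for 5, where 9.28% and 2.01% of all gene windows were. Among gene windows with a peak in each of the 4 libraries, as 26 of the 50 had, the shares were 32.3% and 5.99%. In Ksu 22 of the 50 were higher and 0 lower, where 65.9% and 0.250% of all gene windows were. Among the 19 SOX genes 5 had an H3K27me3 peak in every library and the median of the means was 6.58%, and among 17 T-box genes these were 7 and 8.28%. The SOX count stood near the share of 20.8% over all gene windows.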

How the data were processed

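CUT&Tag peak lists of 8 libraries were used, 1 list per library. Per the submitters' processing notes the authors used SEACR and genome build hg38. The stringent mode is given in the names of the lists. The aligner, threshold, control track and scaling are not given in the sources used here. The deposited lists give the total and the highest signal of each peak, used here only to rank peaks within a library. Gene bodies were those of RefSeq GRCh38.p14. Covered bases were counted on 24 chromosomes with Python 3.11.15 and pandas 2.3.3. Treatments were compared by an exact two-sided permutation test, by whether their libraries overlapped, and by limma 3.58.1 (R 4.3.3) on log2(covered percent + 1) over windows with a mean cover above 0, with Benjamini-Hochberg adjustment at 0.05. The limma fit was tested on simulated data in which some windows differed between groups by design. No library in those data had a general shift in cover. That test does not show how reliable the Ksu calls are. All 9 members are named, as are the 3 genes of highest H3K27me3 cover in the list of 50 and, for each member, the gene of most similar cover, which for PAX7 is not reported here. Members and lists were chosen with earlier results of these data known. Alternatives were equal numbers of peaks, the 50% of peaks of highest total signal, merging within 1 kb, other flanks, pseudocounts and filters, leaving out single libraries and a replicate block. Division by library cover was added after seeing the data.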

Additional observations from a re-analysis of the deposited data

How the results depend on the processing

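Over 40 results, 361 alternative values were computed, of which 266 moved by less than the replicate spread (for counts, by at most 1.5 times), 83 moved further, 8 lost a limma call and 4 reversed a difference between treatments that did not overlap. With 1 of 2 libraries of a group left out, a difference cannot move by more than that spread. Those values therefore count as unmoved by construction. For H3K27me3, PAX1 went from -9.86 points to 0.588 points without succinate replicate 1. PAX5 went from 2.05 points to 13.4 points without control replicate 1 and to -9.32 points without control replicate 2. The setting that divides by library cover was chosen after seeing the data. Beyond what a setting removes by construction, the cause was not tested.

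The number of members with H3K27me3 higher in both succinate libraries was 1 after merging within 1 kb and 0 after division by library cover, and the number lower was 2 with 50 kb either side and 0 after that division. Without each library in turn, when fewer libraries have to stay apart, these numbers ranged from 2 to 5 and from 2 to 3, where 11.2% to 18.4% and 3.29% to 18.6% of all gene windows did. For Ksu 4 members were higher at equal numbers of peaks and 3 after division, and the difference over the 9 windows was 2.94 points at equal numbers and 7.22 points with the upper 50% of peaks by total signal. At equal numbers 5 members had a Ksu peak in all 4 libraries, against 28.7% of all gene windows. With presence at 50% cover, 3 members had H3K27me3 in all libraries, against 4.45% of all gene windows, and 0 members and 0 of all gene windows had Ksu. On gene bodies alone the median H3K27me3 cover of the members was 65.3%. The direction of Ksu changed at equal numbers for PAX6 (-0.281 points) and PAX9 (-2.58 points), and on gene bodies alone for PAX1 (-6.30 points) and PAX9 (-0.553 points).

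In limma over all windows, H3K27me3 calls higher and lower were 541 and 59 at equal numbers of peaks, 11 and 1 on gene bodies, and 1 and 1 without a filter. With a library left out they ranged from 0 to 96 and from 0 to 1712, the highest of both without control replicate 2. No member was among them in any of the 14 alternatives. Ksu calls higher were 239 at a mean cover of at least 5%, 19 with the 50% of peaks, 8 after merging, 294 with 50 kb either side, and 0 at equal numbers, on gene bodies and after division. Left-out libraries gave 0 to 1967 higher, the most without control replicate 2, and 0 to 25 lower. Of the members, 0 were called for Ksu without a filter, at equal numbers, after merging, on gene bodies and after division, and 0 to 4 with a library left out. The PAX7 adjusted p of limma over these alternatives ranged from 4.18e-07 to 0.891.

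Labels share replicate numbers 1 and 2 across groups, without saying that a number marks a shared culture or day. Deviations of same-numbered libraries correlated over windows at 0.315 for H3K27me3 and 0.136 for Ksu. With the replicate number as a block, limma called 12523 Ksu windows higher and 5 lower, with 6 members higher (PAX1, PAX2, PAX4, PAX5, PAX7 and PAX8), and 0 H3K27me3 windows. Read depth is unknown, and small gaps between treatments may lie within it.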

Other observations

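The gene outside the family with the most similar cover is given for 8 members, by the mean absolute difference in covered percent over the 8 libraries. ACTC1, the cardiac actin gene, lay closest to PAX9 (1.05 points) and UQCC2, an assembly factor of respiratory complex III, to both PAX3 (1.15 points) and PAX4 (1.32 points). OGA was closest to PAX8 (1.31 points), NTNG2 to PAX2 (1.58 points) and ABCG1, a cholesterol exporter, to PAX5 (2.15 points). TAMALIN was closest to PAX6 (2.24 points) and CALHM2 to PAX1 (2.73 points). At TAMALIN H3K27me3 covered 34.5% and 21.9% in control and 17.6% and 23.4% in succinate, so the treatments overlapped there. With 20037 windows and 8 libraries, close matches are easily found, and no test was made.

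The 3 members at which Ksu was higher in both succinate libraries after division by library cover, PAX2, PAX5 and PAX7, were also the 3 with the highest mean H3K27me3 cover, at 88.2%, 64.8% and 92.5%. This was noticed after the values were seen and was not tested.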
